A study of Mus musculus with 6 samples.

Results

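The platelet-derived growth factor (PDGF) genes, their receptors and the Kit ligand pair were examined in 2T3 cells, a clonal mouse pre-osteoblast line. The members were 8 of the 18193 genes named on the array: Pdgfa, Pdgfb, Pdgfc, Pdgfd, Pdgfra, Pdgfrb, Kitl and Kit. They were followed through every probe set that the platform's probe table gives to 1 of them, 20 of 45101, each kept separate. The 3 static samples came from cells kept in static culture for 3 days. The 3 rotated samples came from cells kept for 3 days in the rotating wall vessel, a turning fluid-filled chamber that serves on the ground as a model of microgravity. All samples were the same line at passages 8 to 10, with total RNA on 1 Affymetrix array each. Groups follow the sample titles, in which the letter R was read as rotated; the source fields of static 2 and static 3 contradict their titles by naming simulated microgravity. The line is 1 immortalised clone, and the labels do not say whether samples came from separate cultures, so the spread between them may be technical.

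PDGF chains are secreted as dimers that bring receptor chains together and switch on their tyrosine kinase activity. PDGF-A and PDGF-C act mainly through the alpha receptor, PDGF-D through the beta receptor and PDGF-B through both; PDGF-C and PDGF-D are secreted in a latent form that proteases must cut. Kit ligand (stem cell factor) acts through Kit, a receptor of the same structural class, and exists in a membrane-bound and a shed form. In bone, PDGFs are mitogens and attractants for osteoblast precursors, Pdgfra marks mesenchymal progenitors, and stromal Kit ligand supports blood stem cells and mast cells.

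In value, transcripts of the ligands Pdgfa, Pdgfc and Kitl stood higher in the rotated samples, and Pdgfra stood lower. At the probe set of each gene with the highest mean, the ligands were higher by 0.89 to 0.99 on the log2 scale. Pdgfra was lower by 0.76 there. For Pdgfa that probe set had the highest mean only through the rotated samples, since in static samples the other probe set read higher. A further Kitl probe set (0.77) and a further Pdgfra probe set (-1.63) differed the same way without overlap, while 1 of Pdgfa, 2 of Kitl and 1 of Pdgfra showed small differences with overlapping groups. Pdgfd stood lower at both tested probe sets, by unequal amounts. The intervals of the Pdgfrb and Pdgfb differences included 0, and both Kit probe sets lay below the filter for dim probe sets. Not one member reached an adjusted p under 0.05 in limma, so each difference is a measured value and not a call. In bulk RNA, fewer cells that express a gene and less RNA per cell cannot be told apart.

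Upstream sequence is shown for the 3 ligand genes that stood higher and for Pdgfra, which stood lower. In these genes the groups did not overlap at the probe set with the highest mean. Windows of Pdgfd, which also stood lower, and of Kit were searched but are not shown. Each line gives the 250 bases before a start site in RefSeq, assembly GRCm38.p6, on the strand of the gene. Windows of 6 of the 8 genes were used, 8 windows in all, with none for Pdgfb or Pdgfrb. Member windows on a chromosome that was excluded by choice were not searched, while the set of all windows kept that chromosome. For Pdgfa the window at the more upstream start site is shown. Capitals mark matches on either strand to GGGCGG, the GC box that Sp-family factors can bind. They also mark matches on either strand to the TATA box, searched as TATAAA. Matches of the same motif may overlap.
Pdgfa chr5:138994945-138995194, minus strand: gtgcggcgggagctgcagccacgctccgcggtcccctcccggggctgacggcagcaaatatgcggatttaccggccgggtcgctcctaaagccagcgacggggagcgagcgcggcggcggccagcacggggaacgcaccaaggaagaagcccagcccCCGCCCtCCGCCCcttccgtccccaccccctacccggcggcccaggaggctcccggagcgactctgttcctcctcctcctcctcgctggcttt
Pdgfc chr3:81036166-81036415, plus strand: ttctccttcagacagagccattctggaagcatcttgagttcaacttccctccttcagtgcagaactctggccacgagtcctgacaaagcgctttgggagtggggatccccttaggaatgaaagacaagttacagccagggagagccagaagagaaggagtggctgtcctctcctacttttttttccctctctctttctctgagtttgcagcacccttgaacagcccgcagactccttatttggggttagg
Kitl chr10:100015571-100015820, plus strand: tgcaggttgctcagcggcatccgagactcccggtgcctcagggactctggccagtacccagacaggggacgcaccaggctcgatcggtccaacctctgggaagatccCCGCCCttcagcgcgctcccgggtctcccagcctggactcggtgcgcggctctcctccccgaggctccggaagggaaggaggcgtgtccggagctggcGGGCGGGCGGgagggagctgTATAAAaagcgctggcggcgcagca
Pdgfra chr5:75152001-75152250, plus strand: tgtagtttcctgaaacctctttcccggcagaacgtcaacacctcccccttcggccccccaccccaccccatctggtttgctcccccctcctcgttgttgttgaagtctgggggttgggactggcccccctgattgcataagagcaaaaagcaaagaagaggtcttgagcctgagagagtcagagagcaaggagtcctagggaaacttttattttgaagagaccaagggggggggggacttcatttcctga

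The Kitl window held 3 GC boxes, a pair of them overlapping between 45 and 36 bases before the start, and a TATA box at 25 to 20 bases before it. The Pdgfa window held 2 GC boxes, at 93 to 88 and 86 to 81 bases before the start, and its other window held 1. The Pdgfc and Pdgfra windows held neither motif. Among the windows not shown, that of Pdgfd held a TATA box match at 160 to 155 bases before the start and no GC box. Both Kit windows, which overlap, held a GC box. Among all 32851 windows of this length, 32.7% held a GC box and 12.4% a TATA box. The EGR motif GCGNGGGCG, which can overlap a GC box and is present in 4.7% of all windows, was in 0 of the 8 windows of the members. The windows of Kitl (69.2% G or C) and Pdgfa (72.4%) lay above the median of all windows (52.4%), those of Pdgfc (50.8%) and Pdgfra (54.4%) close to it. The ligands that stood higher therefore did not share these letters in these windows.

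Values are given on the scale log2(signal + 16.6) after quantile normalization, so a difference of 1 is a doubling for bright probe sets and understates the change of dim ones. Of the 20 probe sets 16 had a mean over all 6 arrays above the filter for dim probe sets (5.96 on this scale) and were tested. Differences are rotated minus static with limma's standard error (SE), n = 3 per group, and p-values were adjusted by Benjamini-Hochberg over all 27022 tested probe sets. At an adjusted p under 0.05 limma called 0 members and 0% of all probe sets, and adjusted p was between 0.564 and 0.886 for the 16. At an unadjusted p under 0.05 there were 8 of 16 members, 5 higher and 3 lower, beside 8.25% of all probe sets (4.34% higher and 3.9% lower). The same 8 had groups that did not overlap, beside 15.1% of all probe sets. These probe sets are not independent: they belong to 5 genes, and several were designed on the same source sequence. The members were also chosen with earlier results of these data known, so the shares here are a description only. Taking only the probe set with the highest mean per gene, 4 of the 7 genes tested had an unadjusted p under 0.05 (Pdgfa, Pdgfc, Kitl and Pdgfra), beside 8.24% of 12554 genes. That mean is over all 6 arrays, and for Pdgfa the choice rests on the rotated samples. In static samples its other probe set, 1418711_at, read higher (8.80 against 8.62). That probe set differed by 0.25, with an unadjusted p of 0.47 in limma. With the replicate number as a block the member count was 9 beside 14.6% of probe sets, and without rotated 1 it was 8 beside 4.04%.

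Some arrays stood apart. For actin, the 3' control read 3.21, 1.57 and 1.48 times the 5' control in rotated 1, 2 and 3. In static 1, 2 and 3 it read 1.37, 1.29 and 1.34 times, so every rotated array lay above every static one. Rotated 1 was the furthest apart, and this ratio cannot be separated from rotation in these samples. The 10th percentile of static 1 was 22.1 (others 4.5 to 7.2). Osteoblast and mesenchymal markers were above the filter for 12 of 12 genes, with summed deposited signals of 75103 to 82229 in static and 64940 to 76100 in rotated samples; Alpl and Ibsp lay close to the threshold. Of 9 mast cell and haematopoietic markers, 2 were above the filter, Cd34 and Spi1. The list's summed signals were 2776 to 3359 in static and 2825 to 5314 in rotated samples, and Cd34 made up most of them. Cd34 lay far above the threshold, with means of 11.46 in static and 11.80 in rotated samples on the normalised log2 scale. Above the filter were also 2 of 5 for melanocytes, 1 of 6 for endothelium, 4 of 7 for pericytes and smooth muscle and 4 of 5 for macrophages. Several of these, Tyr, Pmel, Kdr and Cd68, lay close to the threshold, as did Spi1. A place above the filter therefore does not by itself show that a marker was expressed.

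**Figure D1:**
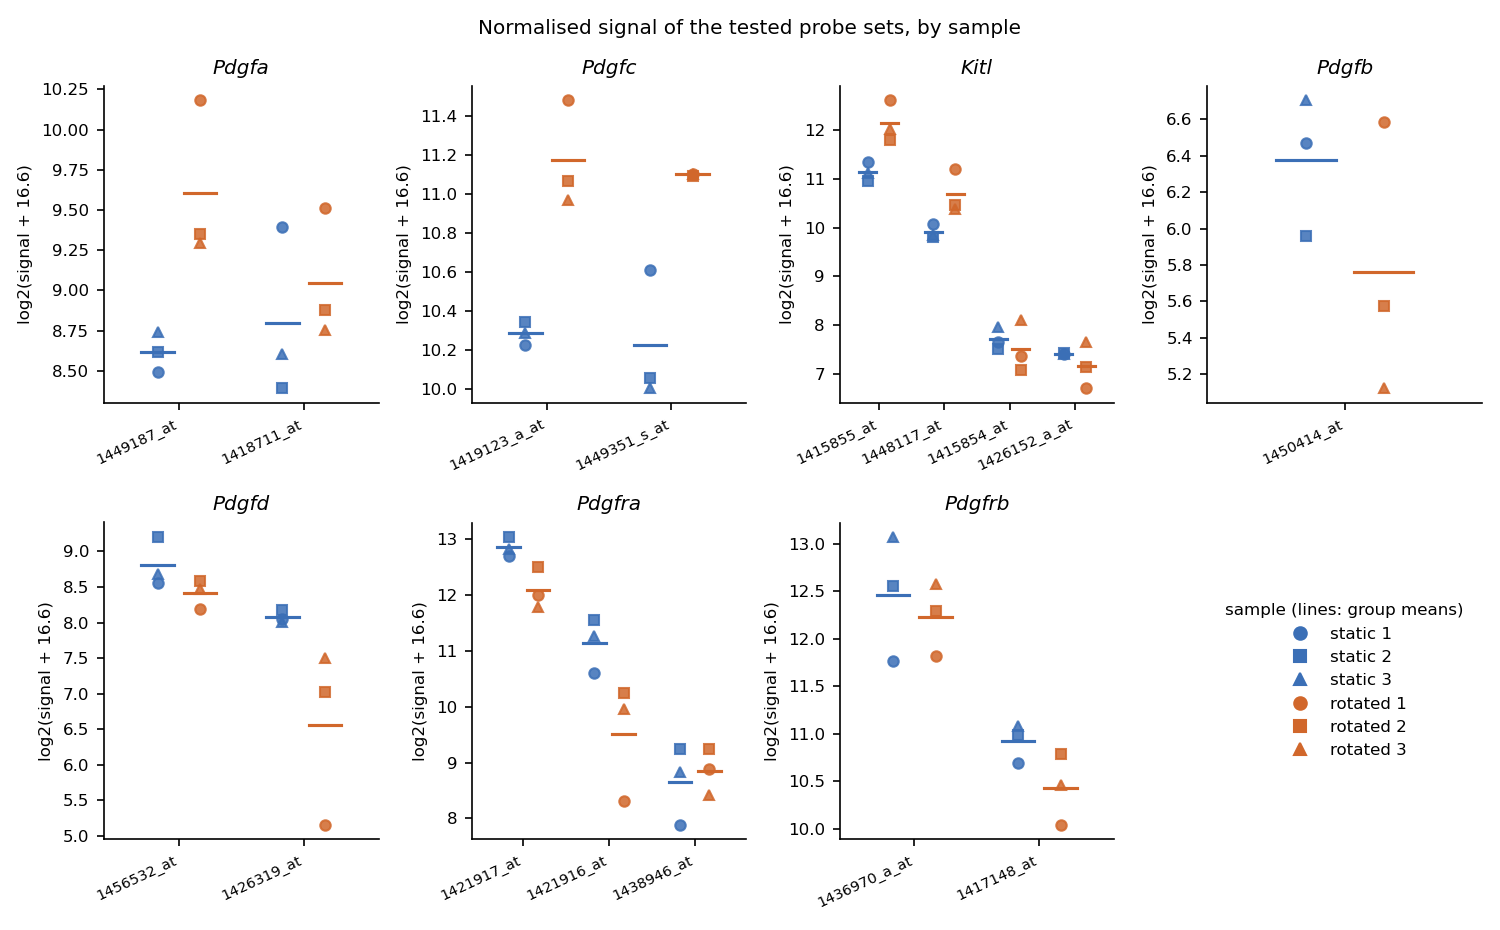
Normalised signal (log2(signal + 16.6), y axis) of each tested probe set (x axis) in the 3 static (blue) and 3 rotated (orange) samples, with lines at the group means and marker shape for the replicate number. Both Pdgfc probe sets and 2 of the 4 Kitl probe sets have all rotated samples above all static ones, and 2 of the 3 Pdgfra probe sets have them all below; axes differ between panels.

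Pdgfc encodes a PDGF chain with a CUB domain and was the ligand gene whose probe sets agreed most closely. Probe set 1419123_a_at read 10.23, 10.35 and 10.29 in static 1, 2 and 3 and 11.48, 11.07 and 10.97 in rotated 1, 2 and 3. The groups were apart, and rotated 1 was the highest of all. The difference was 0.89 ± 0.21 (SE, 95% interval 0.41 to 1.36), which is 1.85-fold higher. Probe set 1449351_s_at read 10.61, 10.06 and 10.01 in the static samples and 11.10, 11.09 and 11.10 in the rotated ones. Here the rotated samples were level with each other and static 1 was the highest of the static samples. The difference was 0.87 ± 0.22 (interval 0.37 to 1.38), 1.83-fold higher. The deposited signals behind these values were 1041 to 1502 in static and 2016 to 2878 in rotated samples over both probe sets. Without rotated 1 the differences were 0.73 ± 0.19 and 0.87 ± 0.24, and without static 1 and rotated 1 together 0.70 and 1.07. Adjusted for the actin ratio they were 0.66 and 0.86. The Pdgfc difference was thus also present without the arrays numbered 1. The actin ratio was still higher in rotated 2 and 3 than in static 2 and 3.

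Pdgfa encodes the A chain, a ligand of the alpha receptor. Probe set 1449187_at read 8.49, 8.61 and 8.74 in static 1, 2 and 3 and 10.18, 9.35 and 9.29 in rotated 1, 2 and 3. All rotated samples were above all static ones, with rotated 1 well above the other rotated samples. The difference was 0.99 ± 0.29 (interval 0.34 to 1.64), and 0.71 ± 0.23 without rotated 1. It was 0.65 ± 0.21 without static 1 and rotated 1 together and 0.56 ± 0.26 adjusted for the actin ratio. The other probe set, 1418711_at, was designed on the same source sequence. It read 9.39, 8.39 and 8.61 in the static samples and 9.51, 8.88 and 8.75 in the rotated ones, so the groups overlapped through static 1. Its difference was 0.25 ± 0.33 (interval -0.50 to 1.00), and it was 0.55 ± 0.30 without static 1 and 0.02 ± 0.34 without rotated 1. The mean of both probe sets differed by 0.62 ± 0.29.

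Kitl, which encodes the Kit ligand, had 4 tested probe sets that fell into pairs. Probe set 1415855_at read 11.35, 10.96 and 11.12 in the static samples and 12.60, 11.79 and 12.02 in the rotated ones. All rotated samples were above all static ones, rotated 1 most of all; its deposited signals were 1982 to 2456 in static and 3561 to 6848 in rotated samples. The difference was 0.99 ± 0.24 (interval 0.45 to 1.54), or 1.99-fold higher. Probe set 1448117_at read 10.06, 9.80 and 9.85 against 10.47 and 10.37 in rotated 2 and rotated 3 and 11.20 in rotated 1, a difference of 0.77 ± 0.26 with no overlap. Without rotated 1 these differences were 0.76 ± 0.20 and 0.51 ± 0.21, and adjusted for the actin ratio 0.64 and 0.37.

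The other pair of Kitl probe sets went slightly the other way in value. Probe set 1415854_at, designed on the same source sequence as the pair above, read 7.66, 7.51 and 7.96 in the static samples and 7.36, 7.07 and 8.11 in the rotated ones. Rotated 3 was above every static sample and rotated 1 and 2 were below them. The difference was -0.19 ± 0.34 (interval -0.96 to 0.58). Probe set 1426152_a_at read 7.41, 7.42 and 7.40 against 6.71, 7.14 and 7.65, with the static samples nearly level and the rotated ones on both sides of them. Its difference was -0.24 ± 0.33 (interval -0.99 to 0.50). The mean over the 4 probe sets of Kitl differed by 0.33 ± 0.23.

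Pdgfd encodes a PDGF chain of the same latent type as PDGF-C and acts on the beta receptor. Probe set 1426319_at read 8.06, 8.18 and 8.01 in the static samples and 5.16, 7.03 and 7.50 in rotated 1, 2 and 3. All rotated samples were lower, and rotated 1 had a deposited signal of 19.9, near the offset, against 110.2 and 154.8 in the others and 246.5 to 283.3 in static culture. The difference was -1.52 ± 0.54 (interval -2.74 to -0.30). It was -0.82 ± 0.29 without rotated 1, and -0.44 ± 0.34 adjusted for the actin ratio. Probe set 1456532_at read 8.55, 9.21 and 8.68 against 8.19, 8.59 and 8.47, with rotated 2 just above static 1. The difference was -0.40 ± 0.27 (interval -1.01 to 0.21). The remaining probe set, 1446691_at, was below the filter and had deposited signals of 54.6, 22.6 and 4.1 in static and 55.9, 59.7 and 39.8 in rotated samples, opposite in direction to the others.

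Pdgfb, the B chain that binds both receptors, was close to the filter. Probe set 1450414_at read 6.47, 5.96 and 6.70 in the static samples and 6.59, 5.58 and 5.12 in the rotated ones, with rotated 1 inside the static range. The difference was -0.62 ± 0.49 (interval -1.73 to 0.49), -1.03 ± 0.50 without rotated 1 and -0.30 ± 0.53 without rotated 3. The other Pdgfb probe set, 1450413_at, was below the filter, with deposited signals of 24.4 to 63 in static and 6.9 to 37.1 in rotated samples.

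**Figure D2:**
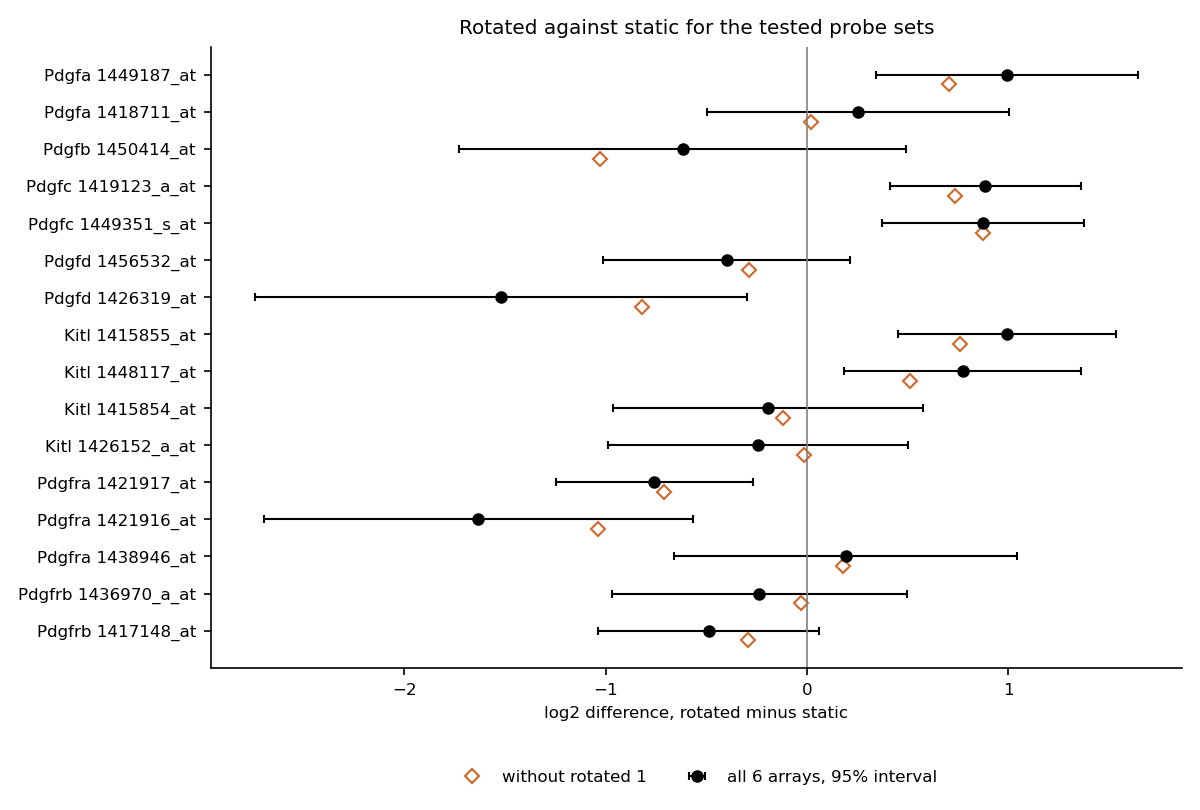
Log2 difference of rotated minus static (x axis) for the tested probe sets (y axis), with 95% intervals from limma on all 6 arrays (black) and the value without rotated 1 (open orange). The intervals of 8 probe sets exclude 0 before adjustment, 5 of them above it and 3 below, and the value of Pdgfd 1426319_at moves most in size, from -1.52 to -0.82.

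Pdgfra encodes the alpha receptor, which receives the PDGF-A and PDGF-C signals. Probe set 1421917_at read 12.70, 13.04 and 12.82 in static 1, 2 and 3 and 12.00, 12.50 and 11.79 in rotated 1, 2 and 3. All rotated samples were below all static ones, and rotated 3, not rotated 1, was the lowest. The difference was -0.76 ± 0.22 (interval -1.25 to -0.27), 1.69-fold lower, and -0.71 ± 0.24 without rotated 1. Probe set 1421916_at, designed on the same source sequence, read 10.60, 11.56 and 11.27 against 8.32, 10.25 and 9.96. The groups were apart here too, and rotated 1 was the lowest by a wide margin. The difference was -1.63 ± 0.47 (interval -2.70 to -0.57), 3.10-fold lower. It was -1.04 ± 0.30 without rotated 1 and -0.71 ± 0.33 adjusted for the actin ratio.

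The remaining Pdgfra probe set did not share this pattern. Probe set 1438946_at read 7.89, 9.25 and 8.83 in the static samples and 8.88, 9.24 and 8.42 in the rotated ones, with the rotated samples inside the static range. The difference was 0.19 ± 0.38 (interval -0.66 to 1.05), and -0.19 ± 0.31 without static 1. The mean over the 3 probe sets of Pdgfra differed by -0.73 ± 0.31. Beside Pdgfra, 11 of 12 osteoblast and mesenchymal markers stood lower in the rotated samples, while 53.2% of all genes stood higher. The median was -0.38 against 0.03 over all genes, with 0 past the test. Without rotated 1, Postn (0.10) and Pth1r (0.40) turned higher. Col1a1 went from -0.79 to -0.36 and Prrx1 to -0.00047, and the other markers that stood lower kept their sign. The part of these markers in the Pdgfra value was not tested.

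Pdgfrb encodes the beta receptor, the partner of PDGF-B and PDGF-D. Probe set 1436970_a_at read 11.77, 12.55 and 13.08 in the static samples and 11.82, 12.29 and 12.58 in the rotated ones. The groups overlapped fully, and static 1 and rotated 1 were the lowest of their groups. The difference was -0.24 ± 0.33 (interval -0.97 to 0.49). Probe set 1417148_at read 10.69, 10.99 and 11.09 against 10.04, 10.79 and 10.46, with rotated 2 above static 1. The difference was -0.49 ± 0.24 (interval -1.04 to 0.06), and -0.29 ± 0.22 without rotated 1. The log2 difference between the Pdgfra and Pdgfrb probe sets with the highest means was 0.39 ± 0.60 (SD, n = 3) in static and -0.13 ± 0.57 in rotated samples. That change of -0.52 gave p = 0.4 in a two-sided exact permutation test. The smallest p that 3 against 3 samples allow is 0.1, above the threshold used in limma. The test therefore cannot decide whether Pdgfra differed more than Pdgfrb, and no conclusion is drawn from it. The groups overlapped, at -0.26 to 0.93 in static and -0.79 to 0.21 in rotated samples. The change was -0.25 without static 1.

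Kit, the receptor of the Kit ligand, had 2 probe sets and both were below the filter. Probe set 1415900_a_at had deposited signals of 178.4, 9.1 and 43.4 in static 1, 2 and 3 and 18.6, 73.1 and 7.2 in rotated 1, 2 and 3. The values scattered in both groups with no order between them, and static 1, the array with the raised low end, was the highest. Probe set 1452514_a_at had deposited signals of 3.9 to 26.8 in static and 5.6 to 24.5 in rotated samples. Detection calls were not used here, so these values do not show whether Kit was expressed.

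Probe sets of the same gene were compared within each array, where a shift equal for all probe sets of an array cancels. Effects that differ between probe sets do not cancel. Whether the actin ratio or the raised low end of static 1 acted unequally on these pairs was not tested. These pairs were chosen after their values were seen. For Pdgfa, 1449187_at minus 1418711_at was -0.90, 0.22 and 0.13 in static 1, 2 and 3 and 0.67, 0.47 and 0.54 in rotated 1, 2 and 3. The rotated samples were all higher, and static 1 was far below the others. For Kitl, 1415855_at minus 1415854_at was 3.68, 3.45 and 3.17 in static and 5.24, 4.71 and 3.91 in rotated samples, a change of 1.19. For Pdgfra, 1421917_at minus 1438946_at was 4.81, 3.79 and 3.99 against 3.12, 3.26 and 3.36, a change of -0.95. In these 3 genes the groups did not overlap, and no test is given because the pairs were picked for their unequal values. For Pdgfd, 1426319_at minus 1456532_at changed by -1.12, with rotated 3 (-0.97) inside the static range of -1.03 to -0.50. Without static 1 the change was 0.38 for Pdgfa (0.74 with it) and -0.64 for Pdgfra. Without rotated 1 it was 0.88 for Kitl and -0.53 for Pdgfd. With the values as deposited it was 0.73 for Pdgfa, 1.35 for Kitl, -0.74 for Pdgfra and -1.11 for Pdgfd.

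**Figure D3:**
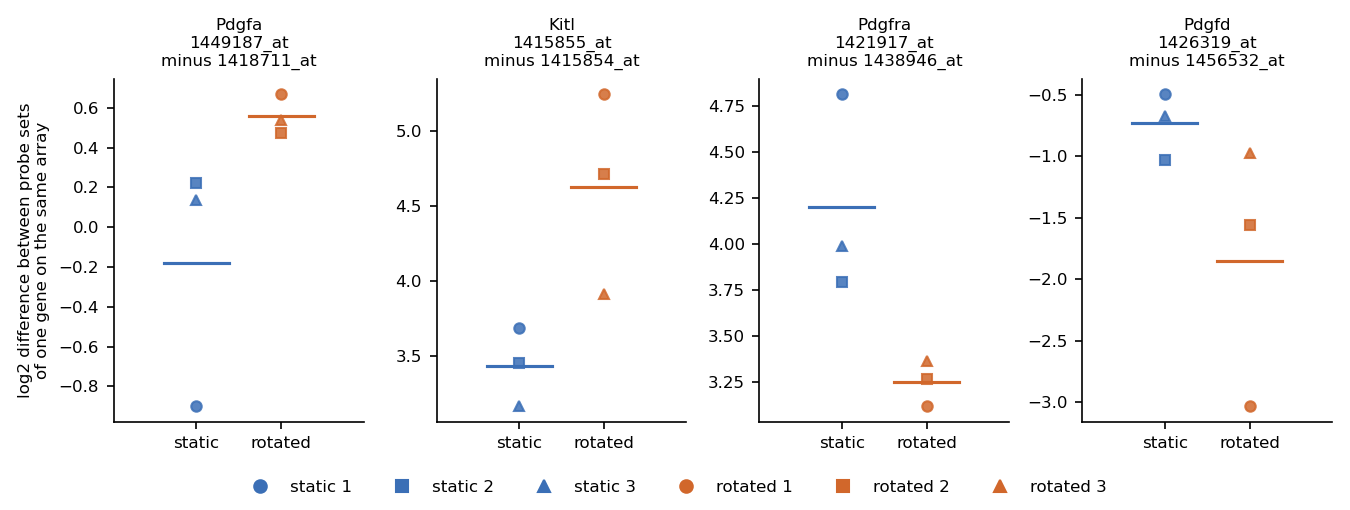
Log2 difference between a pair of probe sets of the same gene on the same array (y axis) in static (blue) and rotated (orange) samples, with lines at the group means. The groups are apart for Pdgfa, Kitl and Pdgfra and overlap for Pdgfd.

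Genes with the most similar profile were searched among the other 12553 genes, by the root mean square difference of log2 values centred on each gene's own mean over the 6 arrays. For Pdgfa the closest were Morc4 (0.065), Capn15 (0.101) and Enoph1 (0.111). For Pdgfc they were Rab11fip5, a Rab11 effector of endosomal recycling (0.058), Spag1 (0.0681) and the Rab escort protein gene Chml (0.0904). For Kitl they were the efflux transporter gene Abcc4 (0.0635), the pyridoxal kinase gene Pdxk (0.0965) and the zinc finger gene Zmat3 (0.097). For Pdgfra they were Gp1bb (0.0969), Urah (0.108) and Calhm5 (0.112), all lower in value in the rotated samples. The closest to Pdgfd was Sspn, sarcospan (0.047), to Pdgfrb Marchf10 (0.0414) and to Pdgfb Evpl (0.204). No member was among the nearest 3 of another member, and with 6 arrays a close match is a description only.

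The other genes of the pathway were taken as lists, each gene by its tested probe set with the highest mean. In no list did a gene pass limma's test after adjustment (smallest adjusted p 0.552, for Sp3), beside 0% of all 12554 genes, and the median difference of all genes was 0.03. Proteins that bind PDGF or act as co-receptors stood lower in 7 of 9 measured cases (median -0.19); at an unadjusted p under 0.05 there were 3 lower and 0 higher, beside 3.74% lower and 4.49% higher over all genes. These were the proteoglycan gene Dcn, decorin (-0.44 ± 0.12), the integrin gene Itgb1 (-0.94 ± 0.34, or -0.48 without rotated 1) and Sparc, a matrix protein that binds PDGF-B (-0.44 ± 0.18, or -0.24 without rotated 1). Dcn and Sparc each had 1 other probe set in the opposite direction.

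Genes that process the ligands split into 5 higher and 4 lower (median 0.01), with 0 at an unadjusted p under 0.05, beside 8.24% of all genes. Plat, the tissue plasminogen activator that can cut latent PDGF-C, stood at -0.61 ± 0.28, opposite in sign to Pdgfc. Groups did not overlap for Plat, lower, and for St14, higher, which were 2 of the 9 genes, beside 15.1% of all probe sets. The protease gene St14 stood at 0.57 ± 0.41 and the sheddase gene Adam17 at 0.23 ± 0.22, with both other Adam17 probe sets in the opposite direction.

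Signal transducers of the receptors split evenly, 14 higher and 14 lower of 28 (median -0.02). The phosphoinositide kinase gene Pik3cb stood at 1.22 ± 0.32, the Ras exchange factor gene Sos2 at 0.91 ± 0.28 and the kinase gene Akt2 at -0.82 ± 0.33, and these 3 of 28 were the members at an unadjusted p under 0.05, a share close to the 8.24% of all genes. Attenuators of the receptors stood higher in 11 of 14 cases (median 0.11), beside 53.2% of all genes. At an unadjusted p under 0.05 there was 1 of the 14, Cbl, a share close to the 8.24% of all genes. Cbl, a ubiquitin ligase that sends active receptors to degradation, stood at 0.76 ± 0.24, the scaffold gene Slc9a3r2 at 0.67 ± 0.37 and the receptor phosphatase gene Ptprj at -1.06 ± 0.51, or -0.45 without rotated 1. The related receptor and ligand genes of the same structural class gave 2 higher and 2 lower values, with Csf1r at 0.36 ± 0.27, Il34 at 0.21 ± 0.46 and Flt3 at -0.24 ± 0.59.

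Transcription factors that can bind upstream of Pdgfa or Kitl, listed together with the corepressor genes Nab1 and Nab2, gave 6 higher and 4 lower values of 10 (median 0.11). Sp3, a factor that binds GC boxes such as those printed above for Kitl and Pdgfa, stood at -1.53 ± 0.36, and at -1.10 without rotated 1. Egr2 stood at -0.52 ± 0.28 and Nab1, a corepressor of EGR factors, at 0.29 ± 0.19. Sp1 (0.24 ± 0.28) and Egr1 (0.04 ± 0.40), chosen after their values were seen, were within their error.

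**Figure D4:**
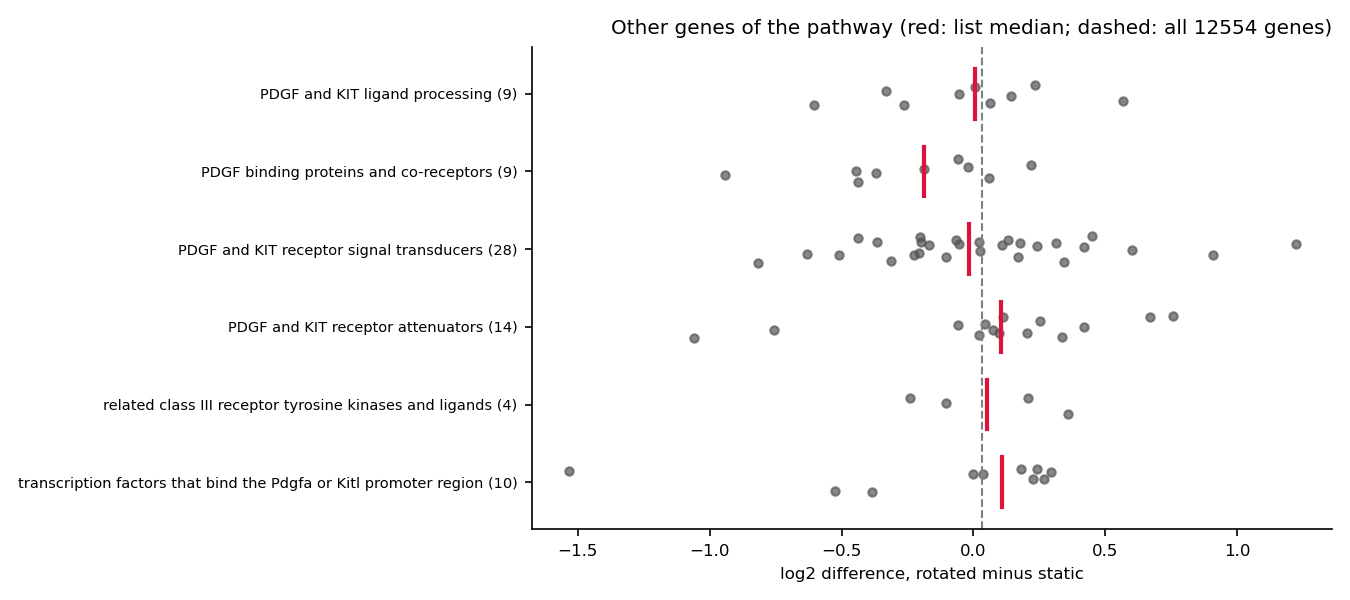
Log2 difference of rotated minus static (x axis) for each measured gene of the 6 pathway lists (points, with the number of genes in brackets), with list medians in red and the median of all genes as a dashed line. The list medians lie between -0.19 and 0.11, and the lowest point is Sp3 at -1.53.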

How the data were processed

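The deposited values are linear intensities, 1 for each probe set on each array. They had been scaled by the authors, since the mean after trimming 2% from each end is 500 on every array. The array maker is per the labels' design text; how probes were summarised is not given in the sources used here. Gene symbols came from the platform's probe table, brought up to date by gene identifier with RefSeq (GRCm38.p6).

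An offset of 16.6, the 20th percentile over the whole table, was added before log2. Array medians differed by 85.9%, so arrays were quantile-normalized. The 64 control probe sets and those with a mean below the 40th percentile were left out. Groups were compared in limma 3.58.1 (R 4.3.3) by two-sided moderated tests from lmFit and eBayes(trend = TRUE), checked on simulated data. The number of arrays limits the precision.

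The correlation of deviations from the group means was 0.196, 0.313 and 0.334 for same-numbered samples, so the numbers may pair the samples. It was negative for the others. Deviations cancel within a group, so these negative values follow largely from the positive ones and are not further evidence. The labels do not say what the numbers stand for. The fit without a block is given unless the block is named. Every member probe set is named, plus up to 3 genes per list with the smallest p and the 3 nearest genes by profile. Members and lists were chosen with earlier results of these data known. Some list genes were not analysed here.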

Additional observations from a re-analysis of the deposited data

How the results depend on the processing

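The alternatives were other scalings, offsets and filters, other variance models, array weights, a replicate block, the mean over a gene's probe sets and each sample left out; the joint removal of both arrays numbered 1 and the actin covariate were chosen after seeing the data. Under all of them 0 member probe sets passed limma's adjusted threshold. Over all probe sets 22 passed with array weights and 2 with the replicate block, against 0 otherwise; pairing by number changed no member's call. The count of all probe sets at an unadjusted p under 0.05 was 2228, and 1357 with median centring, 5148 with array weights, 3957 with the replicate block, 702 with the actin covariate and 1091 to 3362 with a sample left out, the lowest without rotated 1 and the highest without rotated 3. The member count at that level was 8, or 5 with the actin covariate and 8 to 9 with a sample left out. It was 10 with array weights, 9 with the replicate block, and 7 with median centring and with the stricter filter. Signs turned only for values within their error. Adjusted for the actin ratio they turned for Pdgfa 1418711_at (-0.13), Kitl 1426152_a_at (0.12) and Pdgfrb 1436970_a_at (0.10). With a sample left out, Kitl 1415854_at ranged from -0.49 to 0.026 (above 0 without rotated 2), Pdgfrb 1436970_a_at from -0.58 to 0.068 (above 0 without static 3) and Pdgfra 1438946_at from -0.19 to 0.49 (below 0 without static 1 and, at -0.0046, without rotated 2). Without both arrays numbered 1 the last was -0.21. The causes were not tested. Dim probe sets (Kit, Pdgfb) limit what can be read of those genes.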
